A study of Homo sapiens with 6 samples.

Results

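The MYC, MAX and MXD network was described in AZ-521 cells given platycodon D (PD), a plant saponin, or its solvent DMSO. Its 10 members (MYC, MYCN, MYCL, MAX, MXD1, MXD3, MXD4, MXI1, MNT and MLX) were taken by gene name from the 58735 genes of the deposited expression table. Polyadenylated RNA had been sequenced from 3 DMSO samples and 3 samples that received 10 µM PD, all harvested after 48 h of exposure, and the line is labelled wild type. Values are FPKM, fragments counted relative to gene length and library size. For the members that length is the union of all annotated exons, which can exceed a single transcript by a different amount for each gene. Levels of different genes, their order, ratios and sums below are therefore approximate. Of the 10 members, 7 reached 1 FPKM in at least 3 samples and were tested, and MYCN, MYCL and MXD3 were not.

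MYC is a transcription factor of the basic helix-loop-helix leucine zipper class that binds DNA only as a partner of MAX. Pairs of MYC and MAX bind E-boxes, short sites with the core CACGTG, and raise the transcription of genes for growth, ribosome production and metabolism. MXD1, MXD3, MXD4, MXI1 and MNT compete for MAX, bind the same sites and repress through the SIN3 and histone deacetylase complex. MLX pairs with some of these repressors and with the glucose-responsive factors MondoA (MLXIP) and ChREBP (MLXIPL).

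Sites with the core of the E-box were looked for in windows of 300 bases, 250 before to 50 after each annotated start site, from RefSeq on build GRCh38.p14. The motif searched was CACGTG, which reads the same on both strands. Windows were matched by symbol for 9 of the 10 members, all but MYC, and 3 of the 9 held the motif. The share was 8.77% over the 27305 genes with a window, expressed or not. In the lists around the network it ran from 0% for other factors of the same class to 47.1% for cell cycle targets. The members with the motif were MNT, MXD4 and MLX. They are shown with 4 other genes named below that passed the test and whose motif lies before the start of the gene in the deposited table. These 4 were taken from 9 such list genes with the motif. In HNRNPD, BYSL, FUBP3, PLK1 and MYBBP1A the motif lies past that start, as does a second motif of EIF4G1. Capitals mark the motif, and each run of 30 bases is written 5′ to 3′ on the strand of its gene.
MNT (chr17:2401236-2401265, minus strand): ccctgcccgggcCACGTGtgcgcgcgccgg
MXD4 (chr4:2262330-2262359, minus strand): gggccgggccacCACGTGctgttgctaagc
MLX (chr17:42567038-42567067, plus strand): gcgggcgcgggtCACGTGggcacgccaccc
SRM (chr1:11060200-11060229, minus strand): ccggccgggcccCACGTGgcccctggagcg
EIF4G1 (chr3:184314450-184314479, plus strand): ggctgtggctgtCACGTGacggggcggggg
CCNB1 (chr5:69166942-69166971, plus strand): gcagaggcagacCACGTGagagcctggcca
KLF6 (chr10:3785289-3785318, minus strand): cgcggggcgagtCACGTGgggggaggggga
The motif of MLX ends 13 bases before the gene start in the deposited table, that of MXD4 48 and that of MNT 130 bases before it. The 12 windows of the members included 2 of MAX and 3 of MXI1, none of which held it, nor did that of MXD1. A match is a run of letters and no evidence of binding in these cells.

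Reads over genes, recovered from the FPKM values, numbered between 14915538 and 16341687 per sample. The divisor used as library size in the FPKM values was 1.03 to 1.10 times these reads in DMSO but 0.947 to 1.00 times in PD. In PD replicates 2 and 3 it lay below the reads (0.997 and 0.947 times), so it was not a plain total of reads. Summed FPKM was 230074 to 237580 in DMSO and 253446 to 273472 in PD, without overlap. A smaller divisor raises every FPKM value of a sample, and how much of the difference in totals comes from it was not tested. The setting with equal FPKM totals, given below, removes this difference. Deviations from the group means moved with transcript GC content across genes. They fell with it in DMSO replicate 1 and PD replicate 3 (Spearman rho = -0.64 and -0.52) and rose with it in DMSO replicate 2 (0.46), DMSO replicate 3 (0.54) and PD replicate 1 (0.61), while PD replicate 2 stood at 0.02. Values are given below without the 2 samples of negative sign and after a correction for GC content in all 6. Both settings were drawn from these same deviations and take out part of the spread that the test uses. They can thus lower p-values in advance, and they called 4558 and 5463 genes against 3678 in the main fit. A call gained under them is no independent support. Separate cultures are not named in the labels, so the spread behind each p-value is that between these 6 samples and may be technical. The labels call the line a gastric cancer cell, and cell banks list it as duodenal. Of 8 epithelial markers 7 stayed below 1 FPKM in every sample, with KRT18 and KRT19 listed at 0. The exception, CLDN4, rose from 1.06 ± 0.153 to 2.68 ± 0.533 FPKM (SD, n = 3). Of 9 gastric markers 8 stayed below 1 FPKM, the exception being SOX2 at 31.9 to 40.8 FPKM, and of 9 intestinal markers 8 did, CDX2 standing at 0.979 to 1.59 FPKM. Of 14 blood, endothelial and stromal markers 11 stayed below 1 FPKM, and the intermediate filament gene VIM fell from 102 ± 6.03 to 78.0 ± 9.50 FPKM (adjusted p = 0.0367 in limma). Leaving out any 1 sample other than PD replicate 3 ended this call (adjusted p = 0.0702 to 0.129), and VIM-AS1 and a neighbour on the other strand cover 24.4% of its exon bases. The other 2 expressed markers of that list, named after their values were seen, did not pass: the collagen gene COL3A1 stood at 42.9 ± 3.81 and 40.6 ± 1.32 FPKM (SD, n = 3; adjusted p = 0.575 in limma), and the smooth muscle actin gene ACTA2 at 6.31 ± 2.01 and 4.85 ± 0.568 FPKM (adjusted p = 0.352 in limma). Summed levels of these last 14 markers were 145 to 160 FPKM in DMSO and 119 to 134 in PD. Their part in the results below was not tested.

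MYC was by far the most abundant member in every sample, and 4 of the 7 tested members, MYC, MAX, MXD1 and MNT, rose under PD while 0 fell. The test was limma on log2(FPKM + 1) over 13579 genes, with adjusted p-values over all of them, and "rose" and "fell" refer to an adjusted p under 0.05. By that rule 14.3% of all genes tested rose and 12.7% fell. None of the members reached a 2-fold change on the log2(FPKM + 1) scale, which 2.84% of the genes did upward. Every tested member was higher in each PD sample than in each DMSO sample, MLX by less than the rounding of its values, a pattern that 22.5% of all genes tested shared. The median log2 fold change of the 7 was 0.59, against 0.00 over all genes tested. In bulk RNA, a change in the number of cells with a transcript and a change in RNA per cell cannot be told apart.

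**Figure D1:**
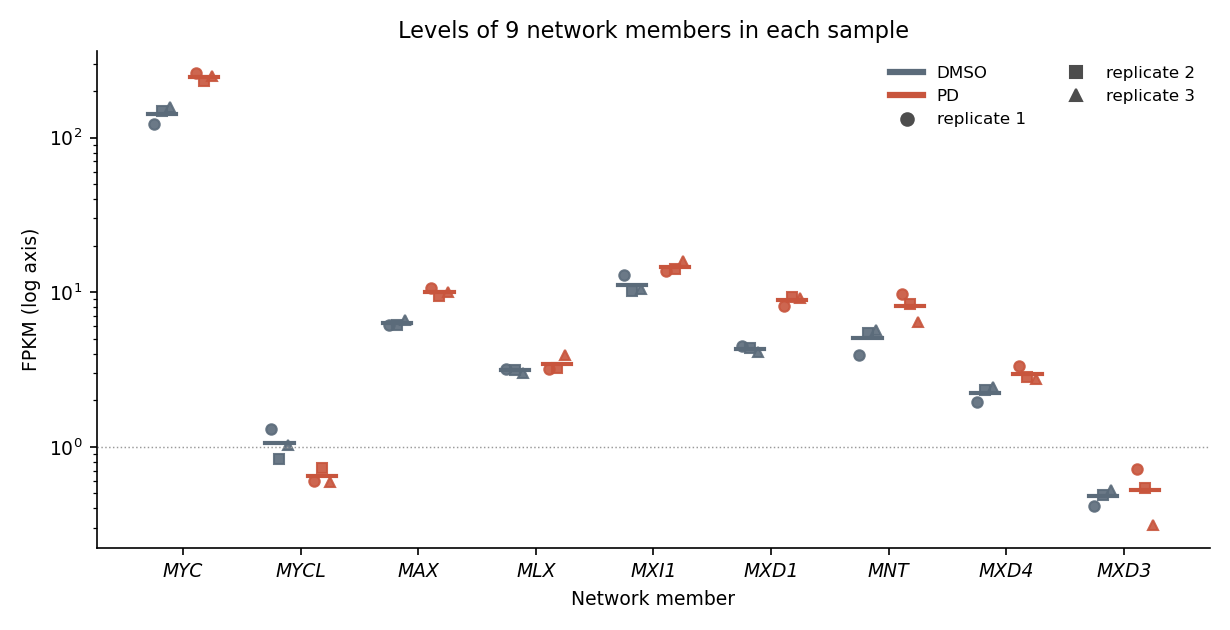
FPKM of 9 members (log axis) in each of the 3 DMSO and 3 PD samples; symbols mark the replicates, short lines the group means and the dotted line 1 FPKM. MYC lies between 122 and 260 FPKM in the 6 samples, the other 8 members below 17, and MYCN, listed at 0 in every sample, is not drawn.

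Among the MYC genes, MYC itself (ENSG00000136997, chromosome 8, 127735434 to 127741434, plus strand, build GRCh38) stood at 122, 148 and 157 FPKM in DMSO replicates 1 to 3. In PD replicates 1 to 3 it stood at 260, 233 and 251 FPKM. All PD samples lay above all DMSO samples, with the lowest value in DMSO replicate 1. MYC rose 1.74-fold between the group means, from 142 ± 18.3 to 248 ± 13.9 FPKM (SD, n = 3), with a log2 fold change of 0.80 ± 0.12 (SE; 95% interval 0.53 to 1.08; adjusted p = 0.00354 in limma). It passed the test under all 16 alternative settings, with log2 fold changes from 0.53 under quantile scaling to 0.88 without DMSO replicate 3. Ranked by FPKM among the 13579 genes tested, MYC stood at places 162, 108 and 108 in DMSO and 71, 75 and 77 in PD. MYC provided between 77.9% and 83.8% of the summed FPKM of the 10 members.

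MYCL, a MYC paralogue that takes part in development and in some lung cancers, stood far below. MYCL (ENSG00000116990, chromosome 1, 39895426 to 39902256, minus strand) had 1.31, 0.834 and 1.03 FPKM in DMSO and 0.604, 0.733 and 0.593 FPKM in PD. Its groups did not overlap, in the direction opposite to MYC (21.9% of all genes tested did so in that direction), but the values rest on 266 reads in the 3 DMSO samples and 149 in the 3 PD samples. Only 2 samples reached 1 FPKM, so MYCL was outside the test. With no filter on low values it had a log2 fold change of -0.32 ± 0.13 and an adjusted p of 0.233 over 32355 genes. MYCN (ENSG00000134323, chromosome 2, 15940564 to 15947007, plus strand), the paralogue of the nervous system, had 0 reads in each of the 6 samples. A count of 0 allows up to 3 reads, which here means a level of up to 0.0653 to 0.0769 FPKM, and such limits cover counting error only.

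MAX, the partner shared by the MYC proteins and the repressors, stood at 6.17, 6.14 and 6.56 FPKM in DMSO and 10.6, 9.43 and 9.95 FPKM in PD. The groups did not overlap, and replicates of a group lay close together. MAX (ENSG00000125952, chromosome 14, 65006174 to 65102695, minus strand) rose 1.59-fold between the means, from 6.29 ± 0.233 to 9.99 ± 0.575 FPKM (SD, n = 3). Its log2 fold change was 0.59 ± 0.08 (SE; 95% interval 0.39 to 0.79; adjusted p = 0.00307 in limma), and it passed under all 16 alternatives with values from 0.45 to 0.67. The level of MYC per level of MAX was 19.7, 24.1 and 23.9 in DMSO and 24.6, 24.7 and 25.2 in PD. These ratios did not overlap between groups, though DMSO replicates 2 and 3 lay within 1 unit of PD replicates 1 and 2, and their difference was not tested.

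MXD1 had the largest log2 fold change of the tested members. MXD1, a repressor that is induced as cells leave the cycle and differentiate, stood at 4.46, 4.34 and 4.09 FPKM in DMSO and 8.14, 9.24 and 9.12 FPKM in PD. Each PD sample lay well above each DMSO sample. MXD1 (ENSG00000059728, chromosome 2, 69897688 to 69942945, plus strand) rose 2.06-fold between the means, from 4.29 ± 0.191 to 8.83 ± 0.601 FPKM (SD, n = 3), with a log2 fold change of 0.89 ± 0.09 (SE; 95% interval 0.69 to 1.10; adjusted p = 0.000848 in limma). It passed under all 16 alternatives, with values from 0.75 to 1.04. The upper end came from limma's voom on recovered reads, which adds a smaller constant to low genes. Whether MXD1 changed more than MYC was not tested, and their intervals overlap.

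MNT, a repressor found in most tissues whether or not cells divide, had 3.94, 5.42 and 5.71 FPKM in DMSO and 9.74, 8.36 and 6.44 FPKM in PD. The groups did not overlap, and the lowest value of each was that of DMSO replicate 1 and PD replicate 3, the libraries whose deviations fell with GC content. MNT (ENSG00000070444, chromosome 17, 2384060 to 2401118, minus strand) rose 1.63-fold between the means, with a log2 fold change of 0.61 ± 0.17 (SE; 95% interval 0.21 to 1.00; adjusted p = 0.0367 in limma). The call ended when any 1 sample other than PD replicate 3 was left out: adjusted p was 0.0744, 0.069 and 0.0557 without each DMSO replicate in turn, 0.105 without PD replicate 1 and 0.11 without PD replicate 2. It was also lost with no filter (0.104), with equal FPKM totals (0.0998) and with upper quartile scaling (0.0501). Without both DMSO replicate 1 and PD replicate 3 the log2 fold change of MNT was 0.61 (adjusted p = 0.011), and after correction for GC content 0.53 (adjusted p = 0.0059). Of its exon bases, 12.2% are shared with the antisense gene AC006435.1.

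MXI1, which represses MYC targets much as MXD1 does, had the highest FPKM of the repressors. Its levels were 13.0, 10.1 and 10.5 FPKM in DMSO and 13.8, 14.1 and 16.0 FPKM in PD, where DMSO replicate 1 came close to the PD samples. MXI1 (ENSG00000119950, chromosome 10, 110207605 to 110287365, plus strand) did not pass, with a log2 fold change of 0.36 ± 0.12 (95% interval 0.09 to 0.64; adjusted p = 0.0569 in limma). Without DMSO replicate 1 it passed at 0.47 (adjusted p = 0.0187). It also passed after GC correction (0.0123), with voom on recovered reads (0.0339), without both DMSO replicate 1 and PD replicate 3 (0.0135), under quantile scaling (0.0482) and at a minimum mean of 5 FPKM (0.0475). The range of its adjusted p over the 16 alternatives was 0.0123 to 0.172.

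MXD4, another repressor of resting cells, and MLX were low. MXD4 (ENSG00000123933, chromosome 4, 2247432 to 2262294, minus strand) had 1.95, 2.33 and 2.44 FPKM in DMSO and 3.33, 2.82 and 2.74 FPKM in PD, a change of 0.29 ± 0.11 on the log2 scale (adjusted p = 0.0959 in limma). It passed under none of its 15 alternatives (adjusted p = 0.052 to 0.318). MLX (ENSG00000108788, chromosome 17, 42567068 to 42573239, plus strand) had 3.20, 3.15 and 3.02 FPKM in DMSO and 3.20, 3.23 and 3.90 FPKM in PD. Its log2 fold change was 0.10 (95% interval -0.13 to 0.34; adjusted p = 0.482 in limma), and DMSO replicate 1 and PD replicate 1 held 209 reads each. With equal FPKM totals the value of MLX was -0.02, where the median of all genes stood at -0.13. PSMC3IP on the other strand overlaps 18.1% of the exon bases of MLX.

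MXD3, a repressor that unlike MXD1 is expressed in dividing cells, was low. MXD3 (ENSG00000213347, chromosome 5, 177301461 to 177312757, minus strand) had 0.417, 0.489 and 0.528 FPKM in DMSO and 0.720, 0.543 and 0.311 FPKM in PD, from 124 reads in each group. The highest and the lowest value were both PD samples. Its neighbours PRELID1 and RAB24 overlap 40.4% of its exon bases, so this level is uncertain.

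**Figure D2:**
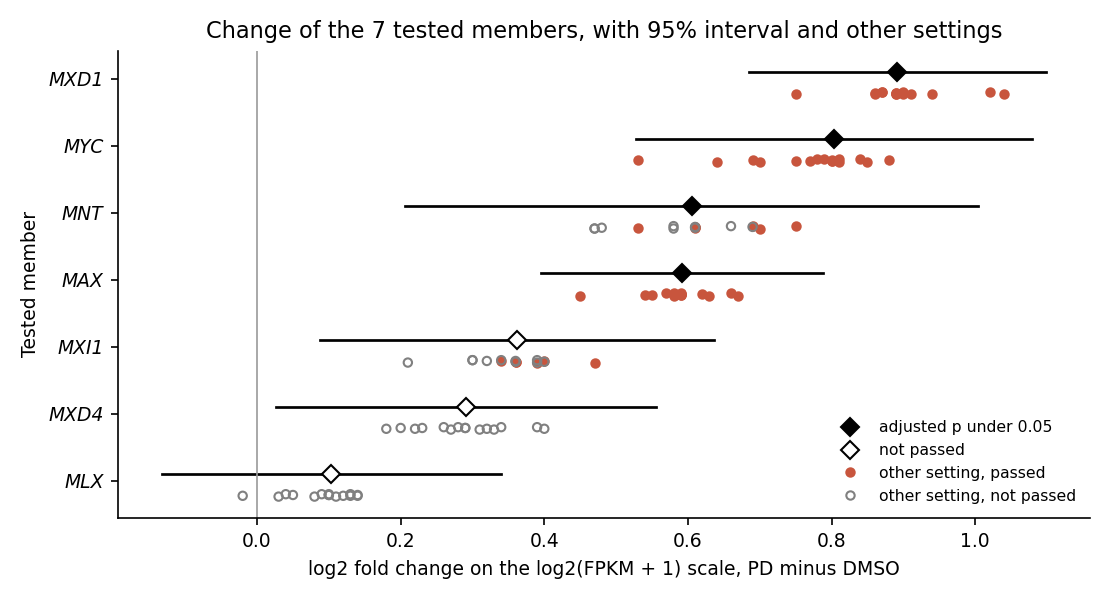
Change of the 7 tested members. Diamonds give the log2 fold change of PD against DMSO on the log2(FPKM + 1) scale with its 95% interval, filled where the adjusted p was under 0.05, and circles below give the 15 or 16 alternative settings. MYC, MAX and MXD1 pass in every setting, MNT and MXI1 in some, MXD4 and MLX in none.

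In DMSO the order of mean FPKM was MYC, MXI1, MAX, MNT, MXD1, MLX, MXD4, MYCL, MXD3 and MYCN. Only MNT and MXD1 overlapped as neighbours in that order, which depends on the gene lengths used. In PD MXD1 (8.83 ± 0.601 FPKM) had passed MNT (8.18 ± 1.65 FPKM), with overlapping samples. MLX and MXD4 also overlapped there, as did MYCL and MXD3. MLX stood at 3.12 ± 0.0917 FPKM in DMSO and 3.44 ± 0.399 FPKM in PD (SD, n = 3).

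The 5 repressors MXD1, MXD3, MXD4, MXI1 and MNT together gave 23.8, 22.7 and 23.3 FPKM in DMSO and 35.7, 35.1 and 34.7 FPKM in PD. The summed level thus lay 10 or more FPKM higher in each PD sample. Relative to MYC it was 19.5%, 15.3% and 14.8% in DMSO and 13.7%, 15.1% and 13.8% in PD. These shares overlapped between the groups, with DMSO replicate 1 as the highest. Relative to MAX the sum was 3.86, 3.69 and 3.55 in DMSO and 3.38, 3.72 and 3.48 in PD, again with overlap. Within the sum, MXD1 provided 18.7%, 19.1% and 17.6% in DMSO and 22.8%, 26.3% and 26.3% in PD, and these shares did not overlap. MXI1 provided 44.5% to 54.8% in DMSO and 38.6% to 46.3% in PD. The sums and shares were chosen after the levels were known, depend on the gene lengths used and carry no test.

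**Figure D3:**
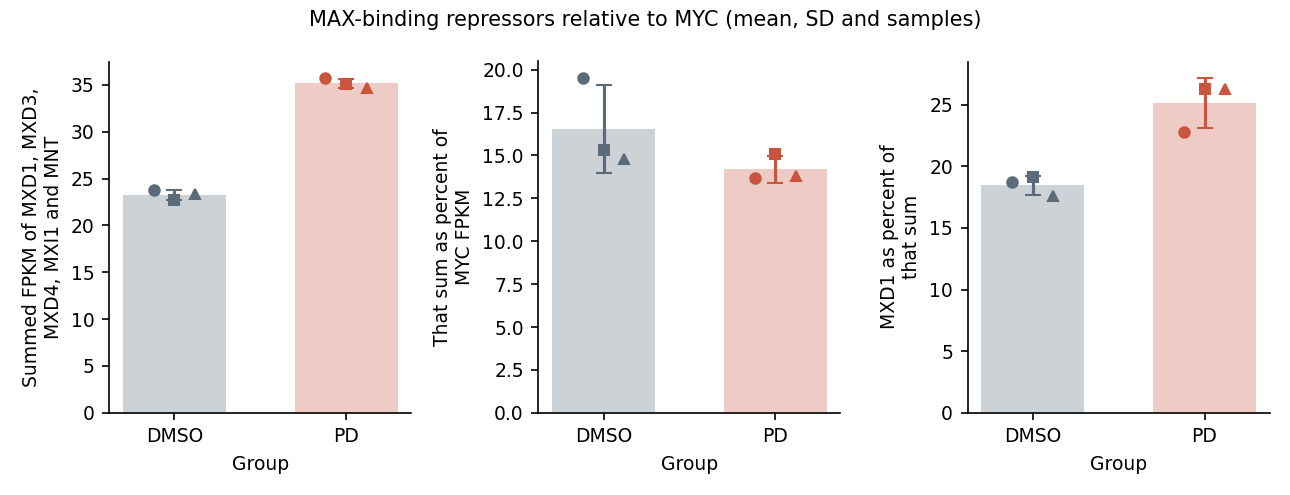
Summed FPKM of the 5 repressors, that sum as a percentage of the FPKM of MYC, and MXD1 as a percentage of the sum, by group (bars, mean; error bars, SD; symbols, the 3 samples). The sum and the MXD1 share are higher in all PD samples, at 34.7 to 35.7 FPKM and 22.8% to 26.3%, while the sum relative to MYC overlaps between groups.

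The genes whose pattern over the 6 samples was most like that of MYC were UBFD1, TGIF1, ATP6V1G1, MFSD5 and DAP3, among 7379 genes with a mean of at least 5 FPKM. Their Pearson correlations with MYC on the log2(FPKM + 1) scale lay between 0.997 and 0.999. TGIF1 encodes a homeobox repressor and ATP6V1G1 a subunit of the vacuolar proton pump, and their log2 fold changes were 0.35 and 0.84. For MXD1 the genes most alike were ANKRD10-IT1, PARP4, ATP6V1D, TMEM159 and HMGA2, with correlations of 0.998 to 1.00 (0.9998 for ANKRD10-IT1). ATP6V1D, another subunit of the proton pump, had a log2 fold change of 1.11, and the chromatin protein gene HMGA2 one of 1.16. The 6 points share the 2 treatment groups, and the highest of so many correlations is high by selection, so these values only describe likeness.

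Around the network, 227 further genes in 13 lists were tested, and 71 passed. Under the settings with equal FPKM totals and with GC correction 89 and 105 passed, against 51 or fewer on leaving out any of DMSO replicates 2 and 3 and PD replicates 1 and 2. The lists hold partners and cofactors of the members, regulators of MYC and genes known as MYC targets. They give counts and medians only, beside 14.3% rising, 12.7% falling and a median of 0.00 over all genes tested.

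Among 13 other factors of the same class and partners, 2 rose and 1 fell, with a median log2 fold change of 0.06. SREBF2, the sterol-sensing factor that also binds E-boxes, rose from 55.3 ± 3.69 to 112 ± 8.75 FPKM, and SREBF1 from 31.0 ± 3.37 to 45.4 ± 4.17 FPKM (SD, n = 3; adjusted p = 0.000771 and 0.0133 in limma). SREBF1 did not pass with equal FPKM totals (0.0569). MYCBP, a small protein that binds MYC, fell from 1.45 ± 0.199 to 0.583 ± 0.209 FPKM (adjusted p = 0.0198). Leaving out DMSO replicate 1, DMSO replicate 2 or PD replicate 1 ended the call of MYCBP (0.0522, 0.0579 and 0.0645), as did using no filter (0.0588) or leaving out both DMSO replicate 1 and PD replicate 3 (0.0732), and 32.1% of its exon bases are shared with same-strand genes such as GJA9-MYCBP. The other 10, which include MGA, MLXIP, MLXIPL, USF1 and USF2, had log2 fold changes between -0.15 and 0.35.

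Of 18 genes of the SIN3 and histone deacetylase corepressor, through which the MXD proteins act, 0 rose and 2 fell (median -0.04). RBBP7, a histone-binding subunit, had a log2 fold change of -0.38 (12.5 ± 0.888 to 9.37 ± 0.584 FPKM) and NCOR1, a nuclear receptor corepressor, of -0.34 (adjusted p = 0.0223 and 0.0324 in limma). Both calls ended when any of DMSO replicates 2 and 3 or PD replicates 1 and 2 was left out (0.0514 to 0.11), and that of NCOR1 also with no filter (0.058) or without PD replicate 3 (0.0647). None passed without any of those 4 samples in turn, 1 did without PD replicate 3 and 3 without DMSO replicate 1. The number that fell was 4 without both DMSO replicate 1 and PD replicate 3, 4 with equal FPKM totals and 5 after GC correction.

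Of 17 genes of coactivator complexes, which MYC recruits to acetylate histones and release paused polymerase, 0 rose and 3 fell (median -0.17). CDK9, the kinase that releases paused polymerase, stood at 15.4, 15.6 and 16.2 FPKM in DMSO and at 9.64, 8.25 and 8.58 FPKM in PD. The groups lay far apart, and CDK9 fell by 0.77 on the log2 scale (SE 0.09; adjusted p = 0.00134 in limma; passed in all 16 alternatives). The TIP60 subunit gene DMAP1 and the acetyltransferase gene KAT2A changed by -0.44 and -0.42 on the log2 scale (adjusted p = 0.0149 and 0.032). The calls of DMAP1 and KAT2A ended when DMSO replicate 2, DMSO replicate 3 or PD replicate 2 was left out (0.0513 to 0.107), and that of KAT2A also with no filter (0.0734) or without PD replicate 3 (0.0737). The number that fell was 7 without both DMSO replicate 1 and PD replicate 3, 6 without DMSO replicate 1 alone, 8 with equal FPKM totals and 9 after GC correction, but 1 on leaving out DMSO replicate 2, DMSO replicate 3 or PD replicate 2.

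Among 18 genes that act on the MYC promoter or on MYC mRNA, 6 rose and 1 fell (median 0.08). ZFP36, which destabilises mRNAs with AU-rich elements, rose from 10.4 ± 1.91 to 21.3 ± 2.96 FPKM (SD, n = 3), and its relative ZFP36L2 from 17.7 ± 0.258 to 25.1 ± 0.790 FPKM. FUBP3, of the family that binds the far upstream element of the MYC promoter, had a log2 fold change of 0.45 ± 0.09. HNRNPD, another AU-rich element binder, fell by 0.42 on the log2 scale (29.8 ± 0.805 to 22.0 ± 0.664 FPKM). In limma the adjusted p ran from 0.00458 for ZFP36 to 0.0109 for FUBP3, which did not pass with equal FPKM totals (0.052). HNRNPD did not pass with the replicate number as a block (0.0543). The rises numbered 2 and the falls 5 with equal FPKM totals, and the rises 3 on leaving out DMSO replicate 2, DMSO replicate 3 or PD replicate 2.

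Of 21 tested genes that control the turnover of MYC protein, 1 rose and 4 fell (median -0.09). PLK1 and AURKA, mitotic kinases that also stabilise MYC proteins, fell by 1.14 and 1.03 on the log2 scale, from 15.3 ± 1.88 to 6.43 ± 1.10 FPKM and from 19.2 ± 0.0862 to 8.94 ± 1.50 FPKM (adjusted p = 0.00168 and 0.0013 in limma). STUB1, a ubiquitin ligase of chaperone clients, fell from 6.56 ± 1.25 to 2.98 ± 0.682 FPKM, with JMJD8 on the other strand over 42.4% of its exon bases. CIP2A, an inhibitor of the phosphatase that marks MYC for degradation, stood at -0.68 on the log2 scale (adjusted p = 0.026). CIP2A did not pass with no filter or without PD replicate 1 or 2 (0.0812, 0.078 and 0.0851). The member that rose was USP36, a nucleolar deubiquitinase, from 13.1 ± 0.702 to 21.3 ± 1.34 FPKM, named after its value was seen. Falls numbered 8 with equal FPKM totals and 6 without PD replicate 3. They numbered 3 with no filter, at a minimum mean of 5 FPKM, with the replicate number as a block, and without PD replicate 1 or 2.

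Ribosome biogenesis, the target group tied most closely to MYC, held 34 tested genes, of which 3 rose and 1 fell (median 0.11). The nucleolar gene NOLC1 stood at 81.6, 79.0 and 85.4 FPKM in DMSO and 135, 135 and 139 FPKM in PD, and RRP12 at 15.2 to 17.3 and 27.1 to 29.9 FPKM. Neither gene overlapped between groups, and they rose by 0.73 ± 0.08 and 0.77 ± 0.09 on the log2 scale (adjusted p = 0.00122 and 0.0013 in limma; passed in all 16 alternatives each). BYSL, a factor of the small subunit, had a log2 fold change of 0.41 and MYBBP1A, a nucleolar MYB-binding protein, of -0.43 (adjusted p = 0.040 and 0.0218). BYSL passed in 6 and MYBBP1A in 9 of 16 alternatives. The call of BYSL ended on leaving out any 1 sample but DMSO replicate 3 (0.0641 to 0.12), and that of MYBBP1A on leaving out any but DMSO replicate 1 (0.0507 to 0.0834). The other 30 genes, among them NCL, NPM1 and FBL, had log2 fold changes between -0.30 and 0.43. The E-box core stood in the windows of 14 of 30 genes of this list (46.7%), a share close to that of cell cycle targets (47.1%). Of those 14 genes 1 rose and 1 fell. Without both DMSO replicate 1 and PD replicate 3 the list had 5 rises and 3 falls, and after GC correction 7 and 4.

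In the nucleotide and polyamine list 2 of 20 rose and 5 fell (median -0.13). SRM, the spermidine synthase, stood at 35.7, 42.7 and 48.6 FPKM in DMSO and 23.2, 20.6 and 25.0 FPKM in PD. It fell by 0.85 on the log2 scale with no overlap (SE 0.13; adjusted p = 0.00419 in limma), opposite to MYC. TYMS, which makes thymidylate, fell by 0.68 on the log2 scale (adjusted p = 0.0201 in limma). TYMS did not pass without DMSO replicate 3 or PD replicate 2 (0.0686 and 0.0727), with no filter (0.0644) or without both DMSO replicate 1 and PD replicate 3 (0.0579), and ENOSF1 and TYMSOS on the other strand overlap 46.6% of its exon bases. NME2, a nucleotide kinase, had 1.60 ± 0.532 and 3.44 ± 0.497 FPKM (adjusted p = 0.017), but shares 22.9% of its exon bases with the readthrough gene NME1-NME2 and did not pass without PD replicate 1 or 2 (0.0551 and 0.0673) or with no filter (0.0619). Equal FPKM totals gave 1 rise and 9 falls, leaving out PD replicate 1 gave 0 rises, leaving out DMSO replicate 2 or PD replicate 2 gave 1, and leaving out DMSO replicate 3 or PD replicate 2 gave 3 falls.

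In the translation list 2 of 20 rose and 1 fell (median 0.10). EIF4EBP1, which restrains cap-dependent translation, stood at 11.3, 17.8 and 21.5 FPKM in DMSO and 9.10, 5.46 and 5.91 FPKM in PD. It fell by 1.18 on the log2 scale (SE 0.25; adjusted p = 0.0141 in limma), but did not pass with no filter (0.0554) or without PD replicate 2 (0.0551). The scaffold EIF4G1 changed by 0.43 on the log2 scale (adjusted p = 0.0311). That call ended with no filter, equal FPKM totals or quantile scaling, and on leaving out any 1 sample but DMSO replicate 3 and PD replicate 3 (0.0612 to 0.148). The helicase gene EIF4A1 was listed at 0.991 ± 0.121 and 2.09 ± 0.226 FPKM, and 48.6% of its exon bases are shared with same-strand genes such as SENP3-EIF4A1, so its level is uncertain. Equal FPKM totals gave 1 rise and 4 falls, and without both DMSO replicate 1 and PD replicate 3 each direction held 3.

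Metabolic targets went both ways: 7 of 21 rose and 3 fell (median 0.07). The iron importer TFRC, which responds to iron, rose from 7.65 ± 0.208 to 62.1 ± 5.05 FPKM and FASN, the fatty acid synthase and a sterol-regulated gene, from 40.0 ± 4.33 to 88.9 ± 14.9 FPKM (SD, n = 3; adjusted p = 1.24e-05 and 0.00189 in limma). SHMT1, a folate enzyme, fell from 3.25 ± 0.136 to 1.49 ± 0.263 FPKM (adjusted p = 0.00349). Equal FPKM totals gave 5 rises and 6 falls, and 4 rose without DMSO replicate 2.

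Cell cycle targets fell in 10 of 21 cases and rose in 2 (median -0.31). CCNB1 and CCNA2, the mitotic cyclins, fell from 29.5 ± 3.12 to 13.9 ± 2.69 and from 27.1 ± 3.13 to 14.1 ± 1.37 FPKM, and E2F1, a driver of S phase, from 7.94 ± 0.240 to 3.58 ± 0.450 FPKM (SD, n = 3). CCND2, a cyclin of early G1 and a direct target of both MYC and MXD1, stood at 21.3, 19.8 and 18.3 FPKM in DMSO and 42.6, 46.5 and 38.4 FPKM in PD. It rose by 1.06 ± 0.10 on the log2 scale, with no overlap. In limma the adjusted p ran from 0.000771 for CCND2 to 0.00277 for CCNB1, and these 4 genes passed in all 16 alternatives. Falls numbered 6 when DMSO replicate 3 or PD replicate 2 was left out. Transcripts on the same strand share 13.8% of the exon bases of CCND2.

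Among 16 tested genes known to be repressed by MYC, 7 rose and 3 fell (median 0.14). The 3 were TXNIP, described below, and CDKN2C and CDKN2B, named after their values were seen. CDKN2C and CDKN2B stood at -0.65 and -0.43 on the log2 scale (adjusted p = 0.0118 and 0.0241 in limma). The extracellular chaperone CLU, GADD45A, which halts growth after stress, and the zinc finger factor KLF6 rose by 2.63, 1.50 and 1.43 on the log2 scale. KLF6 reached 477 ± 21.7 FPKM from 176 ± 14.0, and GADD45A 261 ± 13.3 from 92.1 ± 9.26 (SD, n = 3; adjusted p = 0.000217 and 0.000225 in limma). Under equal FPKM totals 6 rose and 6 fell.

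TXNIP, which limits glucose uptake, belongs both to that list and to the targets of MLX with MondoA. It stood at 1.42, 1.76 and 2.00 FPKM in DMSO and 0.234, 0.449 and 0.497 FPKM in PD, with no overlap. TXNIP fell by 0.97 on the log2 scale (SE 0.15; adjusted p = 0.00416 in limma) and passed in all 15 of its alternatives. In the MLX and MondoA list 2 of 8 rose and 3 fell (median -0.15). The arrestin gene ARRDC3 fell from 13.9 ± 2.12 to 7.56 ± 1.38 FPKM (adjusted p = 0.0082). ARRDC2 and the glucose-responsive KLF10 stood at 0.48 and 0.44 on the log2 scale (adjusted p = 0.0242 and 0.0481). Both calls ended with equal FPKM totals, with no filter, and on leaving out DMSO replicate 2, PD replicate 1 or PD replicate 2 (0.0584 to 0.145). ARRDC2 also did not pass without DMSO replicate 1 (0.0534) or without both it and PD replicate 3 (0.0521), and the call of KLF10 also ended under quantile scaling (0.0751) and on leaving out DMSO replicate 3 (0.128) or PD replicate 3 (0.0899).

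**Figure D4:**
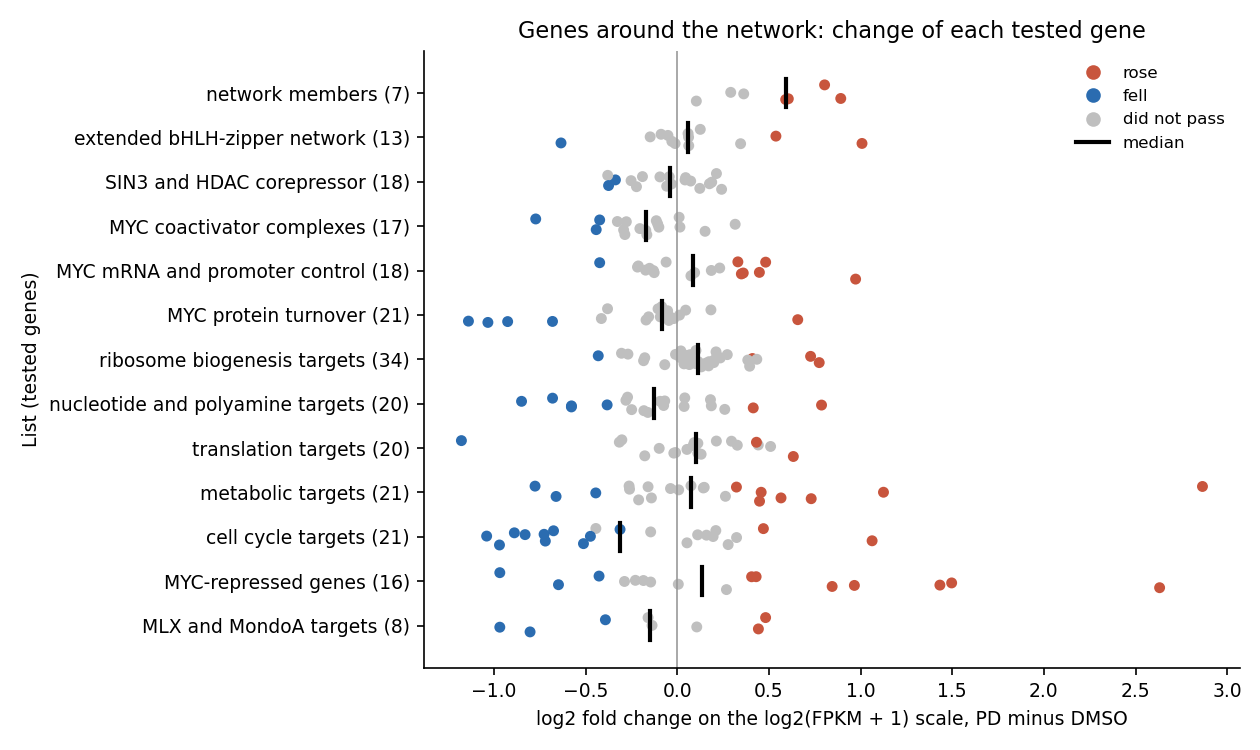
Log2 fold change of each tested gene in the network and in 12 lists around it, PD against DMSO, with the number of tested genes in brackets and black bars at the medians. The 7 members lie right of 0 with a median of 0.59, cell cycle targets have the lowest median of the lists drawn (-0.31), and ribosome biogenesis targets lie on both sides of 0 (median 0.11).

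Noncoding genes of the MYC-family loci and a noncoding MYC target were low or moderate. PVT1, the long noncoding gene downstream of MYC, stood at 13.2, 17.8 and 16.2 FPKM in DMSO and 19.5, 22.8 and 16.9 FPKM in PD. Its groups overlapped, and its log2 fold change of 0.31 ± 0.14 did not pass (adjusted p = 0.152 in limma), nor under any of the 16 alternatives. MIR17HG, the host of the miR-17 to miR-92a cluster and a direct target of MYC, had 2.39, 2.43 and 2.61 FPKM in DMSO and 5.41, 6.23 and 5.90 FPKM in PD. MIR17HG rose by 0.98 ± 0.09 on the log2 scale (adjusted p = 0.000686) and passed in all 15 of its alternatives. CASC11 stood at or below 0.214 FPKM, MYCNOS had a value above 0 in DMSO replicate 3 alone, and MYCLP1 was listed at 0 throughout.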

How the data were processed

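FPKM per gene, with gene length, came from the authors' deposited table of 6 samples. Libraries were stranded mRNA preparations with paired reads, per the labels' protocols. Aligner, counter and strand setting: not given in the sources used here. Builds listed in the submitters' processing notes are the mouse GRCm38 and mm10, but all 58735 identifiers and coordinates in the table are those of human GENCODE release 29 (GRCh38). For all 10 members the deposited gene length is the union of their annotated exons. Whole reads were recovered from FPKM and length for 100% of values (tolerance 0.01). Columns were matched to samples by group prefix and number. Values were taken as log2(FPKM + 1), and 13579 genes with at least 1 FPKM in at least 3 samples were fitted with limma 3.58.1 (R 4.3.3) using a trend of variance on level, two-sided tests and Benjamini-Hochberg adjustment over all genes. The pseudocount of 1 understates the change of low genes. The fit was tested on simulated reads with 200 changed genes, drawn independently for each gene and without deviations linked to GC content. The simulation therefore cannot show how the fit behaves under the GC-linked deviations of these samples. Members, lists and tests were chosen with earlier results of these data known. Named genes are the members, up to 4 passing genes per list by size of change (or the highest gene where fewer than 2 passed), all noncoding genes of the last list, and the 5 genes most like MYC and MXD1. Some genes that this rule names are not reported here. Settings varied were pseudocount, filter, scaling, replicate block, samples, GC correction (loess, span 0.3) and voom. List genes were matched by name, all but CCAT1. Figures used matplotlib 3.10.9.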

Additional observations from a re-analysis of the deposited data

How the results depend on the processing

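MYC, MAX and MXD1 kept their direction and passed in all 16 alternatives, and MXD4 and MLX passed in none of 15. MLX turned to -0.02 with equal FPKM totals. MNT lost its call at 0.61 with no filter, 0.47 with equal FPKM totals and 0.58 with upper quartile scaling, and ranged from 0.47 to 0.75 without 1 replicate. MXI1 passed at 0.36 with a minimum mean of 5 FPKM and after GC correction, 0.34 under quantile scaling, 0.40 without DMSO replicate 1 and PD replicate 3 and 0.39 with voom, and ranged from 0.30 to 0.47 without 1 replicate. The intestinal marker CDX2 turned positive without DMSO replicate 3 or PD replicate 2, at 0.04 and 0.00, lay between -0.15 and 0.04 on leaving out 1 replicate, and was -0.16 without both DMSO replicate 1 and PD replicate 3.

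Over all genes 3678 passed, 1947 higher and 1731 lower, and leaving out 1 replicate gave 2003 to 3534 (1144 to 1877 higher, 859 to 1657 lower). Leaving out both DMSO replicate 1 and PD replicate 3 gave 4558 (2402 higher, 2156 lower), and 85 list genes. A minimum mean of 5 FPKM gave 2214 (1254 and 960). With equal FPKM totals, where the median of all genes moved to -0.131, 1290 were higher and 3158 lower, so 29% of the calls were higher against 52.9%. With no filter 1075 were lower, and after GC correction 2928. At least 2-fold higher were 386 genes, 626 with a pseudocount of 0.1, 227 at a minimum mean of 5 FPKM and 667 with voom. List genes that passed numbered 71, and 44 to 70 without 1 replicate. The cause of these differences was not tested.

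Replicate numbers are shared by the groups, but deviations of same-numbered samples correlated at -0.388, 0.168 and -0.163, so the numbers were not taken to pair samples. With the number as a replicate block 1844 genes passed (1089 higher, 755 lower) and 39 list genes, and MNT stood at 0.61 (adjusted p = 0.106 in limma). Calls that ended under this block included those of SREBF1, MYCBP, RBBP7, HNRNPD, CIP2A, TYMS and EIF4EBP1 (adjusted p = 0.052 to 0.0822 in limma). Those of DMAP1, MYBBP1A, ARRDC2 and VIM (0.0702 to 0.0872) and of KAT2A, BYSL, EIF4G1, KLF10 and NCOR1 (0.103 to 0.116) ended too. Depth limits MYCL, MXD3 and MYCN, with 266, 124 and 0 reads in DMSO.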
